A study of Mus musculus with 32 samples.

Results

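The TGF-beta and BMP signalling genes were followed as a set of 37 members, taken by symbol from a count table of 24421 gene rows, and all 37 were found there. They comprised ligands, proteins that store or activate the ligands, type I and type II receptors, co-receptors and a decoy receptor, Smad proteins, nuclear corepressors, ubiquitin ligases and Id genes. The transcriptomes came from bone marrow of female C57BL/6 mice, sorted into 8 fractions at 10 weeks of age (Young) and at 20 months of age (Aged). Cells of each age were pooled across mice and then sorted in duplicate, which gave 16 groups of 2 libraries and 32 libraries in all. The p-values therefore measure the spread between duplicates of a pool, which may be technical, and do not measure the spread between mice.

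The 5 most immature fractions were IL-7R- Lin- Sca-1+ c-Kit+ cells. Among them hematopoietic stem cells (HSCs) were CD34- CD150+ CD48- Flt3-, and the multipotent progenitors (MPPs) were CD34+. MPP1 was CD150+ CD48- Flt3-, MPP2 was CD150+ CD48+ Flt3-, MPP3 was CD150- CD48+ Flt3-, and MPP4 was CD150- CD48+ Flt3+. Granulocyte-macrophage progenitors (GMPs) were Sca-1- c-Kit+ with FcgR and CD34 on the surface, megakaryocyte-erythrocyte progenitors (MEPs) lacked both of these, and common lymphoid progenitors (CLPs) were IL-7R+ with low Sca-1 and c-Kit. The fractions carried the markers of their names, with a summed level of 4 GMP markers of 87600 to 88900 CPM in young GMPs, of 4 MEP markers of 5120 to 5150 CPM in young MEPs and of 4 CLP markers of 2030 to 2080 CPM in young CLPs. Here CPM is the usual depth-scaled count, on library sizes adjusted by the trimmed mean of M values (TMM). The libraries held between 11237384 and 17723245 counts, so that 3 counts, taken as the floor, corresponded to 0.186 to 0.281 CPM.

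TGF-beta is secreted bound to a latent complex and, once released, brings together a type II and a type I receptor kinase, which phosphorylate Smad2 and Smad3. BMPs act through their own receptors on Smad1, Smad5 and Smad9, and both branches use Smad4 to reach target genes. Smad6 and Smad7 inhibit the pathway and are themselves induced by it, and the Id genes are classical targets of the BMP branch. In bone marrow, TGF-beta is best known for holding HSCs in quiescence.

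Promoter sequence was read for the gene with the most calls between ages, Bmpr1a, for the inhibitor of the BMP branch, Smad6, and for 2 Id genes. Of the 37 members, 28 were matched to RefSeq promoter windows (GRCm38.p6, 250 bases before to 50 after a start). The letters GTCT, the core of a Smad-binding element, GGCGCC and GGAGCC, GC-rich letters bound by Smads, were searched on both strands. The 28 members had 37 windows, since some have several starts. GTCT was in 88.0% of all 32817 windows and in 30 of the 37 member windows. GGCGCC was in 11.9% of all windows and in 12 of the 37, and GGAGCC was in 30.8% of all windows and in 20 of the 37. These matches are letters in a window and not measured sites. The 250 bases before 1 RefSeq start of each gene follow, 5′ to 3′ on the gene's strand, with GGCGCC and GGAGCC (either strand) in capitals. They lie at chr14:34502547-34502796 (minus strand, Bmpr1a), chr9:64022060-64022309 (minus strand, Smad6), chr12:25096093-25096342 (minus strand, Id2) and chr4:136143572-136143821 (plus strand, Id3).
Bmpr1a: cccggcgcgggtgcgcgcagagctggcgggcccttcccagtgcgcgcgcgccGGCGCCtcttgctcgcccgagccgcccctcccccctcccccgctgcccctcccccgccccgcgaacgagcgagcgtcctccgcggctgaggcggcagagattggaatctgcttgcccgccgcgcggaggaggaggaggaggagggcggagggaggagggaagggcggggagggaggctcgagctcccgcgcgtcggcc
Smad6: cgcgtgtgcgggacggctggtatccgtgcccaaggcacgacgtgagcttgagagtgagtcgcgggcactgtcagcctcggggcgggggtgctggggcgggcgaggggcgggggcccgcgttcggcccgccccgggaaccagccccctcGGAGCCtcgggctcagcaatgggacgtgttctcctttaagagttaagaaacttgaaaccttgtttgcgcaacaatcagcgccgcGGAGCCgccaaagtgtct
Id2: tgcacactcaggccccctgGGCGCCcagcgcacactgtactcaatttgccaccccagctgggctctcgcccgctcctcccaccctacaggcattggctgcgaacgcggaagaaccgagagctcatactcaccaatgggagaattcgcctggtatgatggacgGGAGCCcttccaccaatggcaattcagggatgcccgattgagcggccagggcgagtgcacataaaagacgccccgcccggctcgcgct
Id3: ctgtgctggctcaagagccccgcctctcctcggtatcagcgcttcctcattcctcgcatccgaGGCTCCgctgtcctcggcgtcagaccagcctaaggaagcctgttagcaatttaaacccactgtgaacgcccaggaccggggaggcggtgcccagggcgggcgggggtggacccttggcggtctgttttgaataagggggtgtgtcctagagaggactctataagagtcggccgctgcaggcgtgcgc
The Bmpr1a window held GGCGCC and no GGAGCC, and the Smad6 window held GGAGCC at 2 positions and no GGCGCC. Id2 held both, and Id3 held GGAGCC.

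The members were first ranked by level in young cells, per kilobase of exon so that genes could be compared. In young HSCs the highest were Nrros, a protein that tethers latent TGF-beta, at 95.7 CPM per kilobase, and endoglin (Eng), a co-receptor, at 93.8 CPM per kilobase. Smad4 followed at 42.7 and Smad7 at 30.7 CPM per kilobase. The receptors of TGF-beta itself were at 12.7 (Tgfbr2) and 5.22 CPM per kilobase (Tgfbr1) in young HSCs. The BMP receptors were lower, at 1.14 for Bmpr2, 2.03 for Acvr1 and 0.467 CPM per kilobase for Bmpr1a. Tgfb1 was the abundant ligand in every young fraction, from 21.2 CPM per kilobase in HSCs to 54.3 in CLPs. Tgfb2, Smad9 and the Smad anchor Zfyve9 had at most 11 counts in any library, did not pass the filter on low counts and were not tested, which left 34 members.

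**Figure D1:**
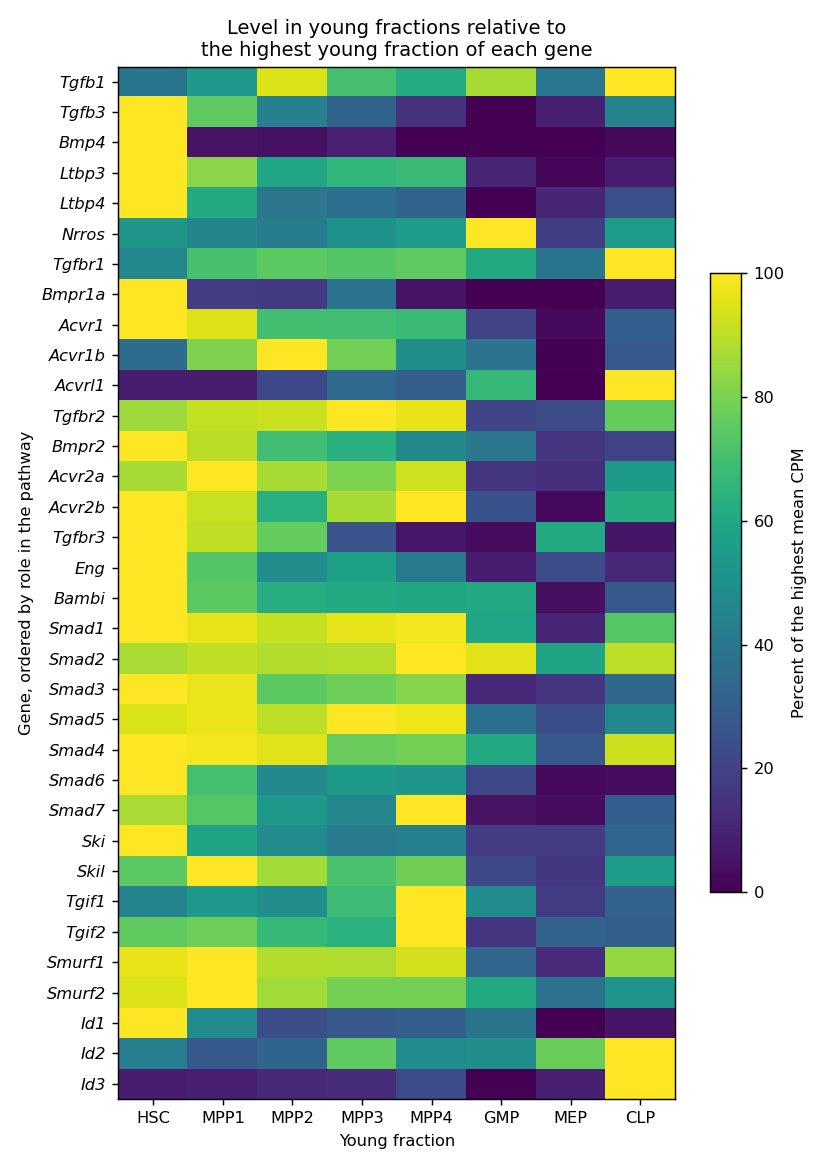
Mean level of each tested member (rows) in the 8 young fractions (columns), as a percent of the mean CPM in the young fraction where that gene was highest. Most members were highest in HSCs or MPPs, MEPs were lowest for many of them, and Id3 was highest in CLPs.

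All 34 tested members differed among the 8 young fractions at adjusted p under 0.01 (edgeR quasi-likelihood F-test), where 86.9% of all genes did. Against the mean of young MPP1 to MPP4, 15 members were called in young HSCs, where 38.1% of all genes were, with 11 higher (19.2% of all genes) and 4 lower (18.9%). Bmp4, a BMP ligand, had 40 and 47 counts in young HSCs and 0 to 5 counts in every young MPP library. The groups did not overlap, and the share of all genes that did so was not computed. Its fitted log2 difference was 5.09 ± 0.62 (SE, adjusted p = 9.05e-06). This value rests in part on 0 counts in both young MPP4 libraries and is no measure of size. Betaglycan (Tgfbr3), a co-receptor that presents TGF-beta, was at 110 and 96.1 CPM in young HSCs, with a log2 difference of 1.61 ± 0.10 (SE, adjusted p = 1.05e-11). Its level was 95.3 and 90.7 CPM in young MPP1 and 7.30 and 5.33 CPM in young MPP4. Id1 was at 27.6 and 29.0 CPM in young HSCs against 6.62 to 14.7 CPM in the young MPP libraries (log2 difference 1.67 ± 0.16 SE, adjusted p = 6.64e-08). Tgfb1, at 110 and 104 CPM, was lower in young HSCs than in the young MPPs, which ranged from 142 to 262 CPM (log2 difference -0.81 ± 0.14 SE, adjusted p = 4.1e-05).

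Young MEPs and young GMPs differed in 24 members, where 50.5% of all genes were called, with 6 higher (22.6% of all genes) and 18 lower (27.9%) in MEPs. Smad1, a BMP-branch Smad, was at 11.7 and 10.4 CPM in young MEPs and at 53.1 and 69.9 CPM in young GMPs (log2 difference -2.48 ± 0.11 SE, adjusted p = 2.12e-14). The decoy receptor Bambi had 28 and 22 counts in young MEPs and 362 and 331 in young GMPs (log2 difference -3.84 ± 0.17 SE, adjusted p = 9.95e-15). Tgfbr3 went the other way, with 57.9 and 67.5 CPM in young MEPs and 3.56 and 2.90 CPM in young GMPs (log2 difference 4.28 ± 0.17 SE, adjusted p = 2.64e-15). The Id genes were split between these 2 fractions. Id1 had 0 counts in both young MEP libraries and 118 and 197 in young GMPs, at least 54.1-fold lower in MEPs with the floor of 3 counts per library. Id3 had 105 and 91 counts in young MEPs and 0 in both young GMP libraries, at least 31.5-fold higher in MEPs. Markers of other cells also differed, with 4 CLP markers summing to 79.0 to 86.4 CPM in young MEPs and 0.898 to 0.926 CPM in young GMPs, and 5 B cell markers to 103 to 105 and 62.6 to 68.3 CPM. The 4 basophil and mast cell markers summed to 2.80 to 3.78 CPM in young MEPs and 600 to 609 CPM in young GMPs. Their part in these differences was not tested.

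Young CLPs differed from young MPP4, the lymphoid-primed MPP, in 15 members, where 41.8% of all genes were called, with 3 higher (21.3% of all genes) and 12 lower (20.5%). Id3, which restrains E proteins in lymphoid cells, was at 74.9 and 72.8 CPM in young CLPs and at 17.5 and 16.7 CPM in young MPP4 (log2 difference 2.11 ± 0.21 SE, adjusted p = 6.54e-08). Smad7 was at 49.3 and 46.3 CPM in young CLPs and at 173 and 145 CPM in young MPP4 (log2 difference -1.74 ± 0.16 SE, adjusted p = 7.56e-09). Smad6 had 13 and 9 counts in young CLPs and 218 and 184 in young MPP4 (log2 difference -3.92 ± 0.44 SE, adjusted p = 2e-07). Both inhibitory Smads were thus lower in young CLPs, and so were the corepressors Tgif1 and Tgif2. Young CLPs also held more of the markers of other cells than young MPP4, with basophil and mast cell markers at 1710 to 1760 against 18.6 to 21.5 CPM, B cell markers at 1810 to 1870 against 44.8 to 54.6 CPM and 6 neutrophil markers at 556 to 563 against 28.0 to 34.8 CPM. Their part in these differences was not tested. In bulk fractions such as these, fewer cells of a type and less RNA per cell cannot be told apart.

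Between ages, 17 of the 34 tested members were called in at least 1 fraction, where 46.2% of all genes were, and the other 17 in none. The calls numbered 40 over the 8 fractions, 11 higher and 29 lower in Aged, and 7 of the 11 higher calls were Bmpr1a. In HSCs 4 members were called, where 5.4% of all genes were, with 2 higher (3.74% of all genes) and 2 lower (1.66%). MPP1 had 4 calls (6.8% of all genes), 1 higher (4.71%) and 3 lower (2.09%). MPP2 had 3 (7.81%), 1 higher (4.49%) and 2 lower (3.31%). MPP3 had 4 calls (13.9% of all genes), 1 higher (8.14%) and 3 lower (5.79%). MPP4 had 8 (16.6%), 1 higher (10.3%) and 7 lower (6.27%). Over all genes the most calls were in MEPs and GMPs. GMPs had 5 member calls (18.9% of all genes), 3 higher (9.93%) and 2 lower (8.97%). MEPs had 9 (20.8%), 1 higher (9.08%) and 8 lower (11.7%), and CLPs had 3 (10.4%), 1 higher (5.71%) and 2 lower (4.73%). As shares of the 34 members the calls were 11.8% in HSCs, MPP1 and MPP3, 8.82% in MPP2 and CLPs, 23.5% in MPP4, 14.7% in GMPs and 26.5% in MEPs, so they lay below the share of all genes in MPP3, GMPs and CLPs and above it in the others, on few genes. With offsets for GC content and length the split of higher and lower calls was 2 and 4 in GMPs and 2 and 3 in CLPs, against 3 and 2 and 1 and 2, and with DESeq2 size factors it was 1 and 4 in MPP2, against 1 and 2. The median log2 fold change of the members was -0.06 in HSCs, -0.24 in each of MPP1, MPP2 and MPP3, -0.33 in MPP4 and -0.30 in MEPs, while GMPs and CLPs had medians of 0 and 0.02. Over all tested genes the median lay between -0.04 and 0.02 in each fraction. Of the 34 members, 22 were below 0 in all 4 MPP fractions, as were 31.7% of all genes.

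**Figure D2:**
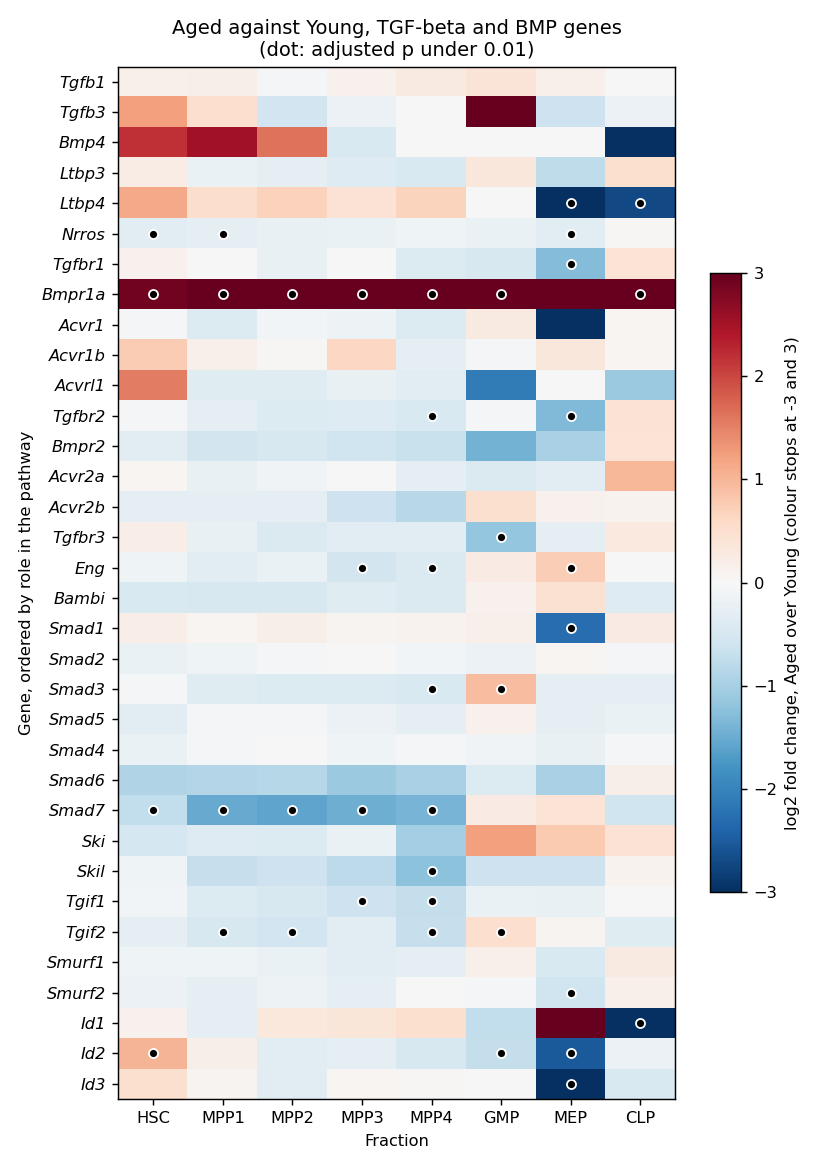
Log2 fold change of Aged over Young for the 34 tested members (rows, ordered by role) in each fraction (columns), red higher and blue lower in Aged, with the colour ending at -3 and 3; a dot marks adjusted p under 0.01. The Bmpr1a row is red in all fractions and dotted in 7, the MEP cell resting on 2 counts in all, the Smad7 row is blue and dotted from HSC to MPP4, and the MEP column has 9 dots, 8 of them on lower values.

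Bmpr1a, a type I receptor for BMP2 and BMP4, was the member with the widest change. In HSCs it was at 2.02 and 3.91 CPM in Young and at 25.8 and 19.2 CPM in Aged, a log2 fold change of 2.90 ± 0.41 (SE, adjusted p = 8.71e-05). In MPP1 it went from 6 and 10 counts to 229 and 319, a log2 fold change of 5.07 ± 0.50 (SE, adjusted p = 2.24e-06). MPP2 went from 6 and 8 counts to 138 and 133 (log2 fold change 4.13 ± 0.52 SE, adjusted p = 3.51e-05). In none of the 7 fractions with a call did the 2 ages overlap. Within 1 fraction this says little with 2 libraries per age, and the share of all genes that did so was not computed.

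MPP3 held the smallest change of Bmpr1a among the MPPs, from 18 and 13 counts in Young to 146 and 127 in Aged (log2 fold change 3.06 ± 0.46 SE, adjusted p = 8.04e-05). MPP4 went from 5 and 0 counts to 128 and 109 (5.61 ± 0.61 SE, adjusted p = 1.79e-06), and the log2 value ran from 4.77 without Young replicate 2 to 9.89 without Young replicate 1. The size in MPP4 thus rests on 5 counts of 1 library, while the call was kept in each case. In GMPs no young library held a read of Bmpr1a, and the aged ones held 64 and 61, at least 26.5-fold higher in Aged with the floor of 3 counts per library. CLPs went from 0 and 6 counts to 58 and 57 (4.10 ± 0.63 SE, adjusted p = 0.000125), and the log2 value ran from 3.13 to 8.87 when 1 library was left out, the extremes being without Young replicate 1 and without Young replicate 2. MEPs had 0 counts in both young libraries and 2 and 0 in the aged ones, which is within the floor.

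Among all 14154 tested genes, 19 (0.134%) were called higher in at least 7 fractions, and Bmpr1a was one of them. In the 7 fractions with a call its aged libraries lay between 4.24 CPM, in CLPs, and 25.8 CPM, in HSCs. The receptors that act beside it were not called. Acvr1, another type I receptor of BMPs, was at 11.3 and 8.28 CPM in young HSCs and at 10.7 and 8.51 CPM in aged HSCs. Bmpr2, the type II receptor of BMPs, was at 22.4 and 18.6 CPM in young and at 18 and 14.8 CPM in aged HSCs. Acvr1 and Bmpr2 were called between ages in no single fraction. The annotation places an antisense transcript, Gm17110, over Bmpr1a exons, and the library kit does not mark strand, so that reads from the overlap could come from either gene.

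**Figure D3:**
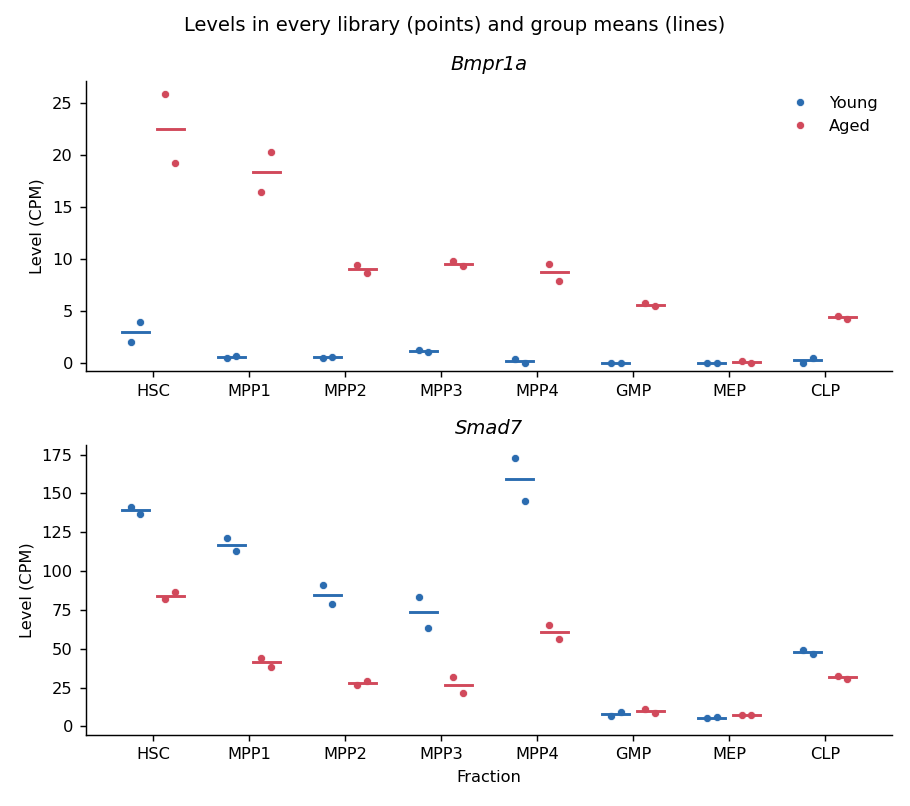
CPM of Bmpr1a (top) and Smad7 (bottom) in every library (points) with group means (lines), Young in blue and Aged in red, across the 8 fractions. For Bmpr1a the aged points lie above the young ones in every fraction but MEP, and for Smad7 they lie below the young ones from HSC to MPP4 and in CLP.

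The other receptors were called in few fractions. Tgfbr2, the type II receptor for TGF-beta, was at 119 and 116 CPM in young MPP4 and at 90.4 and 80.4 CPM in aged MPP4. This was a log2 fold change of -0.46 ± 0.11 (SE, adjusted p = 0.00469), which did not pass when any 1 of the 4 MPP4 libraries was left out (log2 -0.54 to -0.38). In CLPs, with 93.0 and 93.1 CPM in Young and 146 and 106 CPM in Aged, the log2 fold change was 0.44 (adjusted p = 0.0101) and was not called. In MEPs both TGF-beta receptors fell. Tgfbr2 went from 25.8 and 30.9 CPM to 11.9 and 10.6 CPM (log2 fold change -1.33 ± 0.14 SE, adjusted p = 2.73e-07). Tgfbr1 went from 34.7 and 22.1 CPM to 11 and 12.0 CPM (-1.31 ± 0.24 SE, adjusted p = 0.000277), a call lost without Young replicate 1 (log2 -0.97). Acvr1, Acvr1b, Acvrl1, Bmpr2, Acvr2a and Acvr2b, the remaining type I and type II receptors, were called in no fraction.

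Of the co-receptors, endoglin moved in opposite directions in MPPs and MEPs. In MPP3 Eng went from 211 and 224 CPM in Young to 147 and 148 CPM in Aged (log2 fold change -0.56 ± 0.08 SE, adjusted p = 4.36e-05). In MPP4 it went from 155 and 162 CPM to 115 and 117 CPM (-0.44 ± 0.08 SE, adjusted p = 0.000363). In MEPs it rose from 77.6 and 99.8 CPM to 146 and 148 CPM (0.73 ± 0.08 SE, adjusted p = 9.1e-07). The age differences of Eng were unequal among the 8 fractions (F-test, adjusted p = 3.78e-07), where 34.9% of all genes and 13 of the 34 members were called by that test. In HSCs Eng was at 389 and 371 CPM in Young and at 329 and 370 CPM in Aged, and was not called. Exons of Eng overlap those of Fpgs on the other strand, so reads from the overlap could come from either gene.

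Tgfbr3 was called in GMPs alone among the single fractions, from 50 and 42 counts to 19 and 13 (log2 fold change -1.17 ± 0.28 SE, adjusted p = 0.00277). This call was lost without Young replicate 1 and without Aged replicate 2 (log2 -1.48 to -0.92 over the 4 libraries left out in turn). Bambi, a receptor-like protein without a kinase domain, was called in no single fraction. Its aged libraries lay below its young ones in HSCs (34.8 and 45.6 against 27.0 and 31.9 CPM) and in MPP1 (30.0 and 30.1 against 21.6 and 21.8 CPM). This says little with 2 libraries per age, and the share of all genes that did so was not computed.

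Smad7, which blocks type I receptors and recruits ubiquitin ligases to them, was at 121 and 113 CPM in young MPP1 and at 43.9 and 38.4 CPM in aged MPP1, a log2 fold change of -1.51 ± 0.16 (SE, adjusted p = 2.24e-06). In MPP2 it went from 90.9 and 78.7 CPM to 26.9 and 29.3 CPM (-1.59 ± 0.16 SE, adjusted p = 1.72e-06). In MPP3 it went from 83.2 and 63.5 CPM to 31.9 and 21.6 CPM (-1.46 ± 0.16 SE, adjusted p = 2.3e-06). All aged libraries of these 3 fractions lay between 21.6 and 43.9 CPM, below every young one. In MPP4, where it was highest, it went from 173 and 145 CPM to 65.4 and 56.1 CPM (-1.39 ± 0.16 SE, adjusted p = 1.3e-06). Among all genes, 171 (1.21%) were called lower in all 4 MPP fractions, and Smad7 was the 1 member that was.

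In HSCs Smad7 was at 141 and 137 CPM in Young and at 81.7 and 86.3 CPM in Aged, a log2 fold change of -0.73 ± 0.15 (SE, adjusted p = 0.0032). The ages did not overlap, but the call was lost when any 1 of the 4 HSC libraries was left out (log2 -0.80 to -0.73). The difference from the MPPs was tested directly, and the age difference in HSCs lay 0.76 ± 0.17 (SE, log2, adjusted p = 0.00842) above the mean of the 4 MPPs. That call was lost with offsets for GC content and length (log2 0.58) and was kept in 3 of 20 refits without 1 library. In GMPs and MEPs Smad7 lay between 5.19 and 11 CPM over both ages and was not called.

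Smad6, which acts mainly on the BMP branch, was called only when the MPPs were averaged. It was at 27.0 and 24.9 CPM in young HSCs and at 12.5 and 15.1 CPM in aged HSCs, a log2 difference of -0.91 that did not pass in HSCs alone (adjusted p = 0.077). In MPP1 it was at 17.1 and 19.2 CPM in Young and at 10.4 and 9.25 CPM in Aged. Averaged over MPP1 to MPP4 its log2 fold change was -0.96 ± 0.17 (SE, adjusted p = 7.48e-05). In each of these fractions both aged libraries were below both young ones. The share of all genes that did so was not computed, and 2 libraries per age say little on this.

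The age difference averaged over MPP1 to MPP4 was called for 13 members, where 36.7% of all genes were, with 1 higher (18.9% of all genes) and 12 lower (17.7%). Bmpr1a was the member called higher, and with offsets for GC content and length the split was 3 and 10. Beside Smad7 and Smad6, the lower ones included the corepressors Skil (log2 fold change -0.84 ± 0.11 SE), Tgif1 (-0.55 ± 0.06 SE) and Tgif2 (-0.51 ± 0.05 SE). They also included Bambi (-0.44 ± 0.06 SE), Smad3 (-0.41 ± 0.06 SE), Tgfbr2 (-0.39 ± 0.06 SE), Eng (-0.38 ± 0.04 SE) and Tgfbr3 (-0.34 ± 0.08 SE). The smallest were Smurf1 (-0.23 ± 0.07 SE) and Nrros (-0.21 ± 0.03 SE). Adjusted p ranged from 6.73e-12 for Smad7 to 0.00782 for Smurf1, and Smurf1 and Nrros did not pass with offsets for GC content and length. Smurf1 kept its call in 1 of 16 refits without 1 MPP library. Smad7, Smad6 and Bambi inhibit the pathway, Skil, Tgif1 and Tgif2 repress Smad complexes in the nucleus, and Smurf1 is a ubiquitin ligase for receptors and Smads. Macrophage markers (11 genes) were lower in all 4 aged MPPs, for example with a summed level of 199 to 214 CPM in young and 57.8 to 62.5 CPM in aged MPP3. Neutrophil markers were lower in aged MPP2 (654 to 695 against 252 to 258 CPM) and MPP3 (1080 against 175 to 238 CPM), but not in MPP1 (69.0 to 90.8 against 80.1 to 96.4 CPM) or MPP4 (28.0 to 34.8 against 35.2 to 36.9 CPM). The 5 HSC markers summed to 851 to 906 CPM in young and 639 to 652 CPM in aged MPP1, to 496 to 514 and 394 to 396 CPM in MPP2, to 593 to 637 and 318 to 373 CPM in MPP3, and to 517 to 575 and 230 to 236 CPM in MPP4. Their part in these differences was not tested.

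The corepressors were called most often in MPP4. Tgif1, a homeodomain protein that recruits histone deacetylases to Smad2, was at 103 and 108 CPM in young MPP4 and at 64.5 and 64.1 CPM in aged MPP4 (log2 fold change -0.72 ± 0.12 SE, adjusted p = 8.37e-05). In MPP3 it went from 71.9 and 73.6 CPM to 45.5 and 49.8 CPM (-0.61 ± 0.12 SE, adjusted p = 0.000651), a call lost without Aged replicate 1. Its relative Tgif2 was at 47.3 and 40.8 CPM in young MPP4 and at 28.0 and 26.7 CPM in aged MPP4 (-0.69 ± 0.10 SE, adjusted p = 2.49e-05). Exons of Tgif2 overlap those of 5430405H02Rik and Gm37790 on the other strand, so reads from the overlap could come from any of these genes. In MPP1 Tgif2 went from 33.0 and 35.9 CPM to 25.4 and 24.3 CPM (-0.47 ± 0.10 SE, adjusted p = 0.00289), a call lost without any 1 of the 4 libraries. In MPP2 it went from 30.9 and 28.1 CPM to 19.9 and 19.6 CPM (-0.58 ± 0.10 SE, adjusted p = 0.000571), and only the loss of Young replicate 2 kept that call. In GMPs it was higher in Aged, at 6.63 and 6.91 CPM in Young and 9.39 and 9.79 CPM in Aged (0.50 ± 0.12 SE, adjusted p = 0.00323). That call was lost under 6 of 10 other settings and without any 1 of the 4 GMP libraries, and its direction was the same in all of them. The 10 include the threshold of 0.05, which no call could fail.

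Skil, which holds Smads inactive and is degraded on TGF-beta signalling, was at 50.4 and 24.7 CPM in young MPP4 and at 16.5 and 15.8 CPM in aged MPP4. Its log2 fold change of -1.22 ± 0.23 (SE, adjusted p = 0.000475) became -0.61, without a call, when Young replicate 1 was left out, and the call was also lost without Aged replicate 2. Ski, the relative of Skil, was called in no fraction, and its duplicates lay far apart, at 52.0 and 16.6 CPM in young MPP4. Smad4 behaved in a similar way in MPP3, at 162 and 83.3 CPM in Young and 155 and 70.0 CPM in Aged. Replicate 2 was low at both ages there, and Smad4 was called in no fraction.

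The receptor-activated Smads changed in single fractions. Smad3, on the TGF-beta branch, fell in MPP4 from 108 and 108 CPM to 78.4 and 78.4 CPM (log2 fold change -0.46 ± 0.11 SE, adjusted p = 0.00445), a call that did not survive the loss of any 1 of the 4 MPP4 libraries (log2 -0.47 to -0.46). In GMPs it rose from 16 and 14.9 CPM to 33.4 and 25.2 CPM (0.93 ± 0.13 SE, adjusted p = 2.14e-05). The aged libraries of Smad1 lay above the young ones in each of the 5 most immature fractions, for example at 105 and 104 CPM in young and 121 and 119 CPM in aged HSCs, without a call. The share of all genes that did so was not computed. In MEPs Smad1 fell from 11.7 and 10.4 CPM to 2.81 and 1.72 CPM (-2.29 ± 0.17 SE, adjusted p = 1.24e-09). Smad2 and Smad5 were called in no fraction, and the Smad2 level ran from 53.0 to 94.3 CPM over all 32 libraries.

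MEPs held the most calls, 9 members of which 8 were lower in Aged. Beside Tgfbr1, Tgfbr2, Smad1 and Eng, described above, they included Id2 and Id3, which keep basic helix-loop-helix factors from binding DNA. Id2 fell from 20.7 and 19.6 CPM to 3.09 and 3.87 CPM (log2 fold change -2.53 ± 0.20 SE, adjusted p = 3.25e-09). Id3 went from 105 and 91 counts to 0 and 5 (-4.83 ± 0.43 SE, adjusted p = 5.85e-08). The log2 value of Id3 ran from -9.55 without Aged replicate 2 to -3.95 without Aged replicate 1, and the call was kept without any 1 of the 4 libraries. Smurf2, a ubiquitin ligase for receptors and Smads, was at 11.1 and 10.9 CPM in Young and 7.59 and 6.97 CPM in Aged (-0.60 ± 0.16 SE, adjusted p = 0.00751), and lost its call without any 1 of the 4 libraries. Nrros fell from 137 and 143 CPM to 118 and 104 CPM (-0.34 ± 0.07 SE, adjusted p = 0.000568).

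Ltbp4, a latent TGF-beta binding protein, had 69 and 9 counts in young MEPs and 0 and 4 in aged MEPs (log2 fold change -3.79 ± 0.90 SE, adjusted p = 0.00319). Its log2 value became -1.83 without Young replicate 1, which ended the call, and the call was also lost without Aged replicate 1. The lower levels in aged MEPs coincided with lower levels of markers of other cells. The summed level of 4 CLP markers was 79.0 to 86.4 CPM in young MEPs and 0.187 to 0.430 CPM in aged MEPs, and that of 5 B cell markers was 103 to 105 CPM and 0 to 0.843 CPM. The 4 GMP markers summed to 248 to 274 CPM in young and 27.4 to 109 CPM in aged MEPs, and 11 macrophage markers to 15.9 to 20.9 and 0.843 to 1.72 CPM. Their part in the MEP results was not tested. Many members were higher in young CLPs than in young MEPs. Among them were Id3, Smad1 and Tgfbr2, at 72.8 to 74.9, 75.2 to 78.1 and 93.0 to 93.1 CPM in young CLPs. Smad2 and Smad7, not called between ages in MEPs, were also among them. Their means were 83.8 and 47.8 CPM in young CLPs and 54.4 and 5.57 CPM in young MEPs. Whether these levels bear on the MEP results was not tested.

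**Figure D4:**
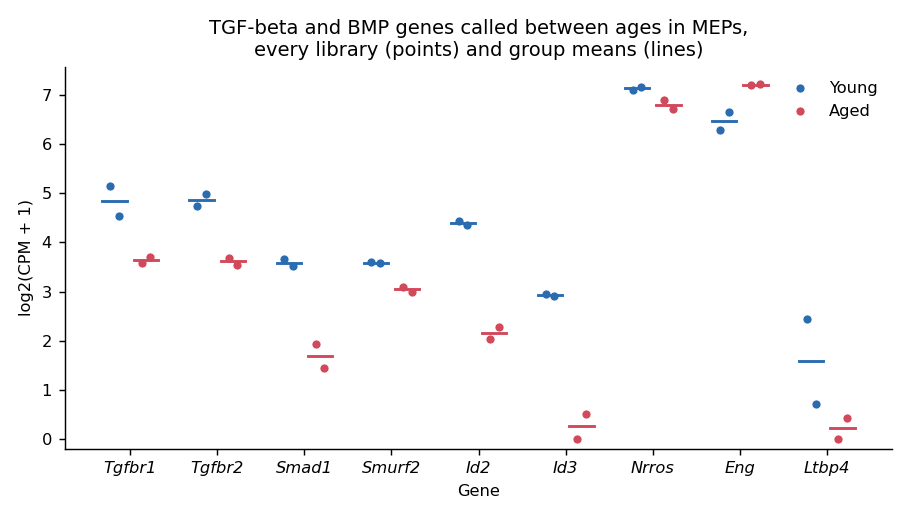
Level on a log2(CPM + 1) scale of the 9 members called between ages in MEPs, every library as a point with group means as lines, Young in blue and Aged in red. Eng is higher in Aged and the other 8 are lower, with Id3 and Ltbp4 near 0 in the aged libraries.

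The Id genes did not move together between ages. Id2 rose in HSCs from 10.2 and 12.0 CPM to 21.4 and 23.9 CPM (log2 fold change 1.03 ± 0.17 SE, adjusted p = 0.000368), a call lost without Young replicate 1 (the log2 value ran from 0.89 to 1.11). It fell in GMPs from 10.9 and 14.7 CPM to 7.61 and 7.93 CPM (-0.72 ± 0.18 SE, adjusted p = 0.00456), and this call was kept only without Young replicate 1 when 1 library was left out (log2 -0.93 to -0.51). The rise in HSCs exceeded the mean age difference of the 4 MPPs by 1.26 ± 0.19 (SE, log2, adjusted p = 0.000318), and Id2 and Smad7 were the 2 members called by that comparison, both higher. With offsets for GC content and length it called 1 member higher and 2 lower, and Smad7 was not among them. Without the offsets it called 3.01% of all genes, 1.91% higher and 1.1% lower. Summed over 6 neutrophil markers, aged HSCs held 274 to 305 CPM against 55.5 to 61.2 CPM in Young, and 4 basophil and mast cell markers held 10.0 to 18.2 against 0.978 to 1.30 CPM. Their part in the Id2 result was not tested. In GMPs, 4 basophil and mast cell markers summed to 600 to 609 CPM in Young and 255 to 330 CPM in Aged. The 6 neutrophil markers summed to 275 to 276 and 89.1 to 121 CPM. The sum of 8 endothelial markers was 12.2 to 25.3 CPM in Young and 26.4 to 30.9 CPM in Aged. Most of it was Tie1, at means of 15.8 and 24.4 CPM, a gene at 329 CPM in young HSCs. At each age 5 of the 8 markers had 0 counts in GMPs, and 0 were called. The part of these shifts in the GMP calls of Id2, Tgfbr3, Smad3, Tgif2 and Bmpr1a was not tested.

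Id1 was not called in HSCs, at 27.6 and 29.0 CPM in Young and 28.2 and 33.6 CPM in Aged. In CLPs 15 and 24 counts of Id1 were seen in Young and none in either aged library, at least 6.99-fold lower in Aged with the floor of 3 counts per library (adjusted p = 1.82e-05). Id3 in CLPs, at 74.9 and 72.8 CPM in Young and 58.4 and 49.8 CPM in Aged, was not called.

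**Figure D5:**
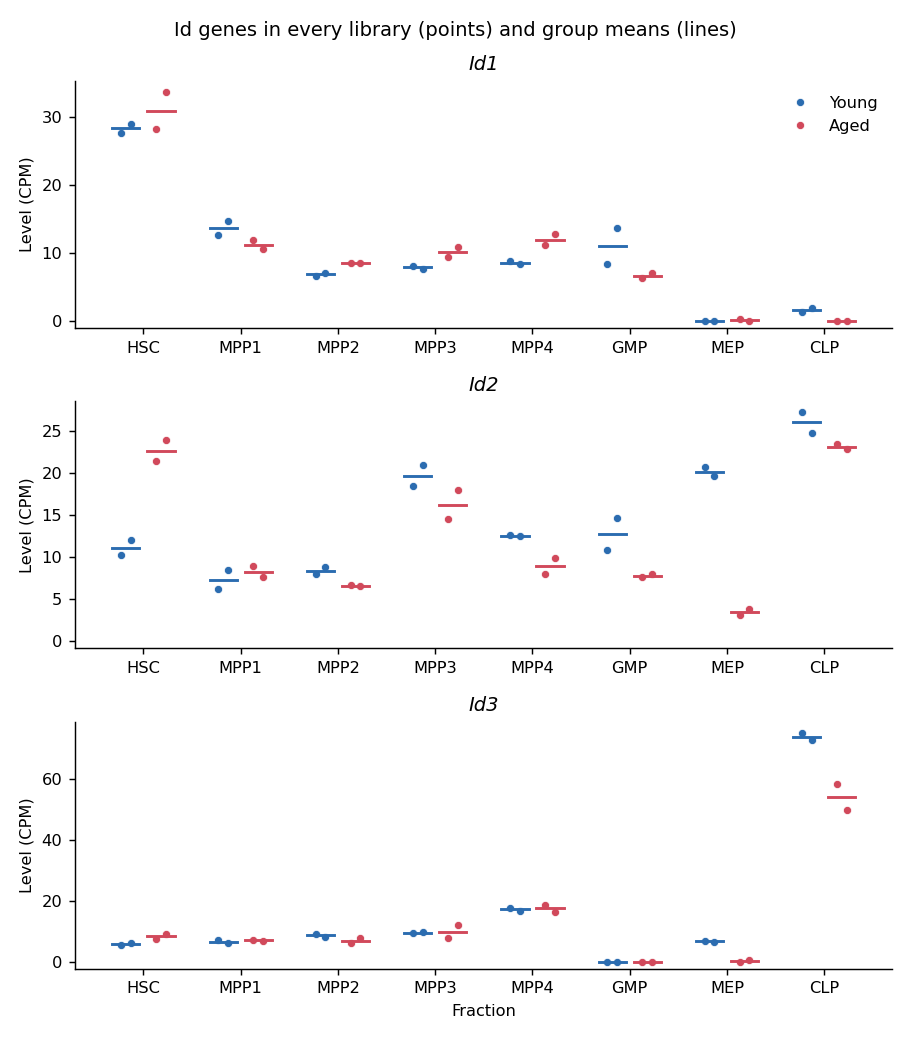
CPM of Id1, Id2 and Id3 in every library (points) with group means (lines), Young in blue and Aged in red, across the 8 fractions. Id2 is higher in aged HSCs and lower in aged MEPs, Id3 is highest in CLPs at both ages, and Id1 is highest in HSCs and close to 0 in MEPs and CLPs.

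CLPs had 3 calls, Bmpr1a, Id1 and Ltbp4. Ltbp4 went from 92 and 48 counts to 12 and 11 (log2 fold change -2.70 ± 0.59 SE, adjusted p = 0.00291), and its call was lost without Young replicate 1 and without either aged library (log2 -3.11 to -2.16). Compared directly with the mean of the MPPs, the age difference in CLPs was unlike it for 7 members, where 22.6% of all genes were called, with 5 higher (10.3% of all genes) and 2 lower (12.3%). Markers of other cells differed between young and aged CLPs in both directions. The 4 basophil and mast cell markers summed to 1710 to 1760 CPM in Young and 8.26 to 11.3 CPM in Aged, 11 macrophage markers to 237 to 258 and 8.32 to 11.3 CPM, and 5 B cell markers to 1810 to 1870 and 777 to 780 CPM. The 7 megakaryocyte and platelet markers summed to 38.6 to 40.1 CPM in Young and 128 to 196 CPM in Aged, where 6 of them rose. The 8 endothelial markers summed to 24.7 to 26.2 and 46.7 to 66.1 CPM, with 2 called higher and 1 lower. The part of all these markers in the CLP results was not tested.

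The ligands and their storage proteins were called in few fractions. Tgfb1 was called in no fraction, and in HSCs it was at 110 and 104 CPM in Young and 106 and 133 CPM in Aged. Bmp4 was detected above the floor of 3 counts in both libraries of a group only in HSCs, aged MPP1, aged MPP2 and young MPP3, and in HSCs it went from 40 and 47 counts to 166 and 234. Exons of Bmp4 overlap those of Gm15217 on the other strand, so reads from the overlap could come from either gene. The log2 difference of Bmp4 in HSCs was 2.18 with adjusted p = 0.0375, so it was not called at 0.01. The ages did not overlap, which says little with 2 libraries per age, and the share of all genes that did so was not computed. Tgfb3, at 6.15 and 6.78 CPM in young HSCs and 13.2 and 17.4 CPM in aged HSCs, was not called either. Nrros fell in HSCs from 389 and 410 CPM to 299 and 332 CPM (log2 fold change -0.34 ± 0.07 SE, adjusted p = 0.00145). In MPP1 it went from 335 and 355 CPM to 287 and 283 CPM (-0.27 ± 0.07 SE, adjusted p = 0.0072). The MPP1 call of Nrros was lost without any 1 of the 4 libraries (log2 -0.32 to -0.23). Ltbp3 was at 176 and 167 CPM in young HSCs and at 182 and 217 CPM in aged HSCs, and was called in no fraction.

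Beyond the 37 members, 75 other genes of the pathway were listed, of which 59 were tested. In HSCs edgeR called 0 of them, 10 had unadjusted p under 0.05 and DESeq2 called 6. The share of all genes with unadjusted p under 0.05 was not computed, so the 10 cannot be read as particular to the pathway. Over all genes edgeR called 764 in HSCs and DESeq2 called 1387. As a share of the 59, the calls were 10.2% in MPP1 (6.8% of all genes), 11.9% in MPP2 (7.81%), 25.4% in MPP3 (13.9%) and 20.3% in MPP4 (16.6%). They were 22% in GMPs (18.9% of all genes), 18.6% in MEPs (20.8%) and 13.6% in CLPs (10.4%). In all, 12 were called in at least 3 fractions, where 13.3% of all genes were, and the 10 of them with the largest changes follow. Thrombospondin 1 (Thbs1), which releases TGF-beta from its latent complex, fell in 5 fractions, from a mean of 107 to 15.3 CPM in MPP4 (log2 fold change -2.80 ± 0.29 SE, adjusted p = 5.94e-07). Klf10, an early response gene of TGF-beta, fell in 6 fractions, by 0.33 in MPP1 and MPP3 to 0.95 in GMPs on the log2 scale. Junb, an AP-1 gene that TGF-beta induces, fell in 5 fractions and rose in GMPs, with means of 541 and 142 CPM in young and aged CLPs (-1.93 ± 0.16 SE, adjusted p = 3.88e-08). Strap, a protein that binds Smad7 at the receptor, rose in MPP1 to MPP4 and fell in GMPs, MEPs and CLPs. Tgfbi, a secreted protein named for its induction by TGF-beta, rose in MPP1 and MPP2 and fell in GMPs and CLPs. The ubiquitin ligase subunit Skp1a rose in MPP3 and fell in GMPs and MEPs, by 0.53 and 0.34 on the log2 scale. Zeb2, a repressor that binds Smads, fell in MPP2 and MPP3, by 0.52 and 0.46 on the log2 scale, and rose in CLPs (log2 fold change 0.45). The deubiquitinase Usp11 fell in MPP3 and MPP4, by 0.42 and 0.44 on the log2 scale, and rose in GMPs (0.39). Rhoa, a small GTPase of the Smad-independent branch, rose in MPP3 (0.30) and MPP4 (0.25) and fell in GMPs and MEPs, by 0.44 and 0.42 on the log2 scale. Stub1, a ubiquitin ligase, rose in MPP3 (0.40), MPP4 (0.36) and MEPs (0.30).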

How the data were processed

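RNA of sorted cells was amplified by the authors with the SMARTer kit, which does not mark strand, and sequenced as single reads. Per the labels and the methods, reads were aligned to mm10 with TopHat2 2.0.13 and Bowtie2 2.1.0, and the raw counts per gene came from StringTie. The deposited count table held 24421 gene rows, of which 27 had names turned into dates (0.188% of counts). The authors' 8 comparison tables hold fold changes and p-values and were not used.

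From the counts, edgeR 4.0.16 (R 4.3.3) was run on all 32 libraries with TMM scaling, filterByExpr (minimum count 10) and a model of 16 groups, which left 14154 genes and 16 residual degrees of freedom. Quasi-likelihood F-tests were adjusted by Benjamini-Hochberg over all tested genes and called at 0.01, the threshold of the study. The SE was the log2 fold change divided by the root of F. Gene models came from GENCODE M21 and promoters from RefSeq, both on GRCm38, the mm10 assembly. The alternatives were DESeq2 1.42.0, its size factors, no filter, a threshold of 0.05, offsets for GC content and length (splines of 4 df, values for 98.9% of tested genes), a replicate block, fits per fraction and leaving out each library. The members and gene lists were chosen with earlier results of these data known. Named were all members, and of the other pathway genes the 10 with the largest changes among those called in at least 3 fractions. The fit was tested on simulated counts. Floors cover counting error only.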

Additional observations from a re-analysis of the deposited data

Results flagged for a closer look

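The age difference of 2 members in HSCs was unlike the mean age difference of MPP1 to MPP4, by a contrast fitted on all libraries. It was higher in HSCs by 0.76 on the log2 scale for Smad7, which fell in both, and by 1.26 for Id2, which rose in HSCs. The Smad7 contrast lost its call with offsets for GC content and length (0.58) and kept it in 3 of 20 refits without 1 library, and the Id2 contrast in 20 of 20.

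In CLPs the age difference was unlike the MPP mean for 7 members. It was higher in CLPs by 0.90 for Smad7, 0.83 for Tgfbr2, 0.95 for Skil, 0.54 for Tgif1 and 0.36 for Eng on the log2 scale. It was lower for Ltbp4 (-3.28) and for Id1, whose fitted value of -7.67 rests on 0 counts in both aged CLP libraries and is no measure of size. Without 1 library in turn, Eng kept its call in 6 and Skil in 7 of 20 refits, and Tgif1 lost it without any of the 4 CLP libraries. With offsets for GC content and length neither Eng (0.16) nor Tgif1 was called, and Eng was not called with either replicate block within fractions. The levels of basophil, macrophage and B cell markers, lower in aged CLPs, and of megakaryocyte markers, higher there, stand beside these values, and their part was not tested.

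An F-test of whether the age difference was the same in all 8 fractions was passed by 13 members. Adjusted p was 1.09e-07 for Smad1, 1.21e-07 for Id2, 3.78e-07 for Eng, 3.79e-06 for Smad7, 5.48e-06 for Id3 and 8.99e-06 for Tgfbr2. It was 3.09e-05 for Smad3, 4.7e-05 for Tgif2, 6.01e-05 for Id1, 0.000849 for Ltbp4, 0.00508 for Tgfbr1, 0.00708 for Tgfbr3 and 0.00945 for Tgif1. Eng, Smad3, Tgif2 and Id2 were called higher in 1 fraction and lower in another. The share of all genes with such opposite calls was not computed.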

How the results depend on the processing

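No log2 difference of a called member changed sign under any setting tried. Outside the F-tests 116 member differences were called. Of 1937 values of them under other settings or without 1 library, 1735 kept the call and 202 lost it. The 1735 include 116 at the threshold of 0.05, which involved no refit and which no call could fail. Counts of called members moved by over 1.5 times in these cases. DESeq2 in place of edgeR gave 7 in HSC, 9 in MPP1, 10 in MPP2, 10 in MPP3, 5 in CLP and 6 for HSC minus MPPs. Over all genes DESeq2 called 1387 in HSC, 1663 in MPP1, 1887 in MPP2 and 2786 in MPP3, where edgeR called 764, 963, 1105 and 1972. It called 2153 of all genes in CLP and 1112 for HSC minus MPPs, against 1478 and 426 by edgeR. A threshold of 0.05 gave 9 in MPP1, 9 in MPP2, 11 in MPP3, 11 in GMP, 6 in CLP and 4 for HSC minus MPPs. A fit of the fraction's 4 libraries alone gave 13 in MPP1, 14 in MPP2, 2 in GMP and 3 in MEP. In CLP it gave 0 by edgeR, where 11 of 33 tested members had unadjusted p under 0.05. DESeq2 on all libraries gave 5 in CLP. For the threshold of 0.05, the fits of 4 libraries and the unadjusted p, the shares of all genes are not given here. These member counts thus cannot be read as particular to the members. DESeq2 size factors gave 5 in MPP2 (1 higher, 4 lower) and no filter gave 6 there. Of all genes they called 1085 and 959 in MPP2, against 1105 in the main fit. Offsets for GC content and length gave 5 in CLP (2 higher, 3 lower), 6 in GMP (2 and 4), 13 for the MPP mean (3 and 10) and 3 for HSC minus MPPs (1 and 2), and moved the median of all genes in that last comparison to -0.12. Over all genes the offsets called 1677, 2290, 5545 and 1690 in these comparisons, against 1478, 2674, 5188 and 426 without offsets. With the replicate block as well the offsets gave 5 in CLP and 4 for HSC minus MPPs, and the shares of all genes are not given here. Offsets without the block ended 15 of the 116 calls. Between ages these were Nrros in MPP1 and the MPP mean, Smurf1 in the MPP mean, Tgfbr2 and Smad3 in MPP4, Tgif2 and Id2 in GMP and Smurf2 in MEP, with Smad7 in HSC minus MPPs and Eng and Tgif1 in CLP minus MPPs. In young cells they were Tgfbr1, Smad6 and Smad7 in HSC against MPPs and Smad4 in MEP against GMP. The fit of 4 libraries ended, among others, those of Smad7 in MPP3, Eng and Id3 in MEP and Bmpr1a and Id1 in CLP. The cause was not tested.

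The labels did not say whether equal replicate numbers shared anything across ages. The duplicate differences of the 2 ages correlated at -0.43 in MPP1 to 0.25 in MPP4 over 8043 genes. The numbers thus gave no single pairing that held in all fractions, and structure shared by the ages within some fractions remains possible. The main fit used no pairing. The replicate block over all libraries gave 5 in CLP and left every other count of members within 1.5 times. It called 1504 of all genes in CLP, against 1478 in the main fit. A replicate block within each fraction, added after seeing the data, gave 2 in MPP1. With crossed pairs in MPP1 and MPP2 it gave 2 and 6. Of all genes it called 922 in MPP1, and with crossed pairs 964 in MPP1 and 1079 in MPP2. The main fit called 963 and 1105. Leaving out 1 library in turn, where the lone duplicate is taken to vary like the other groups, the counts ran from 3 to 4 in HSC, 2 to 2 in MPP1, 2 to 3 in MPP2, 3 to 4 in MPP3, 5 to 7 in MPP4, 2 to 4 in GMP, 7 to 10 in MEP and 2 to 3 in CLP. They ran from 12 to 15 for the MPP mean, 1 to 2 for HSC minus MPPs, 4 to 8 for CLP minus MPPs, 10 to 16 for the F-test among fractions, 9 to 16 for young HSC against MPPs, 19 to 25 for young MEP against GMP and 13 to 15 for young CLP against MPP4. The lowest counts came without either young or aged library of MPP1, Young replicate 1 or Aged replicate 2 of MPP4, Aged replicate 2 of GMP, any library of CLP for CLP minus MPPs, and either young HSC library for young HSC against MPPs. Depth limited members with libraries at 0 counts, among them Bmp4 (17 libraries), Bmpr1a (7), and Ltbp4, Acvrl1, Id1 and Id3 (5 each).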
